A study of Danio rerio with 8 samples.

Results

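The comparison described here set foxc1a mutants against their siblings in the posterior trunk of zebrafish embryos. It rested on the 4 of 8 libraries whose titles carry the posterior code (PS), 2 from mutants (MUT_PS) and 2 from siblings (SIB_PS), called replicates 1 and 3 after those titles. The mutants were p162/p162 homozygotes for foxc1a. The characteristics give the siblings as p162/+, whereas the design text speaks of wild-type controls, so the control group is named SIB here. All embryos were 38 to 40 hours post fertilisation (hpf), and heads and yolks had been removed. Posterior pieces held segments 7 to about 12, which lie behind the path taken by the pectoral fin nerves. The remaining 4 libraries, 2 of each genotype (MUT_AS and SIB_AS), came from anterior segments 1 to 6 and are used here for the estimate of spread and for a side-by-side view. The labels state neither how many embryos went into a library nor whether replicates came from separate clutches, so p values measure only the spread between these libraries, which may be technical.

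Foxc1 proteins are forkhead transcription factors of the mesoderm, and in zebrafish foxc1a is expressed in paraxial mesoderm and acts in somite and vessel development. A trunk piece of this age holds fast and slow skeletal muscle, spinal cord, notochord, skin and pigment cells, together with vessels and the blood cells inside them. The circulating red cells of this stage carry embryonic globins, and the first neutrophils and macrophages are already spread through the embryo.

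Levels are given in RPKM, reads scaled to transcript length and library size, and differences as the mean of log2(RPKM + 1) in MUT_PS minus that in SIB_PS, which understates the fold of low transcripts. The tissue label was met by some of its planned markers and not by all. Genes of hox paralog groups 9 to 13 had a mean log2 level of 3.79 to 4.35 in the 4 posterior libraries and 2.19 to 2.80 in the 4 anterior ones. Groups 6 to 8, also planned as higher in posterior pieces, went the other way. Their mean log2 level was 4.12 to 4.37 in the posterior libraries and 5.03 to 5.35 in the anterior ones. The pectoral fin gene tbx5a lay between 0 and 0.190 RPKM in the posterior libraries and at 1.82 RPKM or above in the anterior ones. Fast muscle genes made up 21.1% to 27.4% of all RPKM in the posterior libraries. The table held no counts, and between 4.6% and 7.7% of transcripts were listed at 0 in the posterior libraries. The standard deviation between replicates was 0.196 in MUT_PS and 0.185 in SIB_PS on the log2 scale, against 0.363 in MUT_AS, whose replicate 3 had 17.5% of transcripts at 0.

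The transcript of foxc1a itself was present in both genotypes. It stood at 9.02 and 7.74 RPKM in MUT_PS replicates 1 and 3 and at 7.74 and 7.32 RPKM in SIB_PS replicates 1 and 3. The log2 difference was 0.13 (SE 0.16, limma adjusted p = 1), which says nothing on whether the genotype labels hold. foxc1b, the paralog of foxc1a, was measured at 5.43 and 5.53 RPKM in MUT_PS and at 4.22 and 4.14 in SIB_PS, with no overlap and a difference of 0.33 (SE 0.15, limma adjusted p = 1).

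Across the whole table the outcome depended on how the spread was estimated. With 1 variance shared by all groups, limma called 0 of 10889 transcripts (0.0%) at an adjusted p under 0.05, while 291 (2.67%) had an unadjusted p under 0.05, 232 higher (2.13%) and 59 lower (0.542%) in MUT_PS. The smallest adjusted p was 0.0937, and the fit without trend and robust moderation also called 0. With 1 variance per group, which gave the MUT_AS libraries a weight of 0.352 and the MUT_PS libraries 1.38, limma called 17 transcripts (0.156%). Of these, 5 were higher in MUT_PS (0.0459%) and 12 were lower (0.11%). Some other fits shared this balance and others did not. The 17 called transcripts carry 16 symbols. The fit without the MUT_AS libraries called 14 (0.129%), 5 higher and 9 lower in MUT_PS, of which 13 were among the 17. The fit of the posterior libraries alone called 99 (0.909%), which included all 17. Of those 99, 72 were higher and 27 lower in MUT_PS, and a fit with a replicate block and 1 variance per group called 32 higher and 14 lower. With the MUT_AS libraries and 1 posterior library left out together, lyz and zgc:173594 were called in all 4 such fits, serpinh1b and per1b in 2, and npsn, npsnl, aqp1a.1, vsg1, mpx and myhz1.2 in none. Over all 24 fits run, lyz was called in 12 and myhz1.2 in 3. The lowest adjusted p of a called transcript lay between 1.23e-22 (zgc:173594) and 0.00111 (aqp1a.1), while the highest was 1 after rounding for each. The lowest values come from the posterior libraries alone, where only 4 libraries give the spread. In that fit the SE of the 17 lay only between 0.164 (myhz1.2) and 0.180 (aqp1a.1). It came mostly from a spread pooled over transcripts, so such low values do not measure the replicates of each transcript. Below, "called" refers to the fit with 1 variance per group unless another is named. The adjusted p of a posterior difference comes from that fit too, unless another is named. Each SE printed with a difference comes instead from the fit with a shared variance. For per1b the SE was 0.31 with a shared variance and 0.19 with 1 variance per group. With a shared variance and the 8 libraries and filter used for the reported fit, none of the 17 was called. A filter at a mean of 5 RPKM called 2 with a shared variance, serpinh1b and lyz (limma adjusted p = 0.0396 each).

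**Figure D1:**
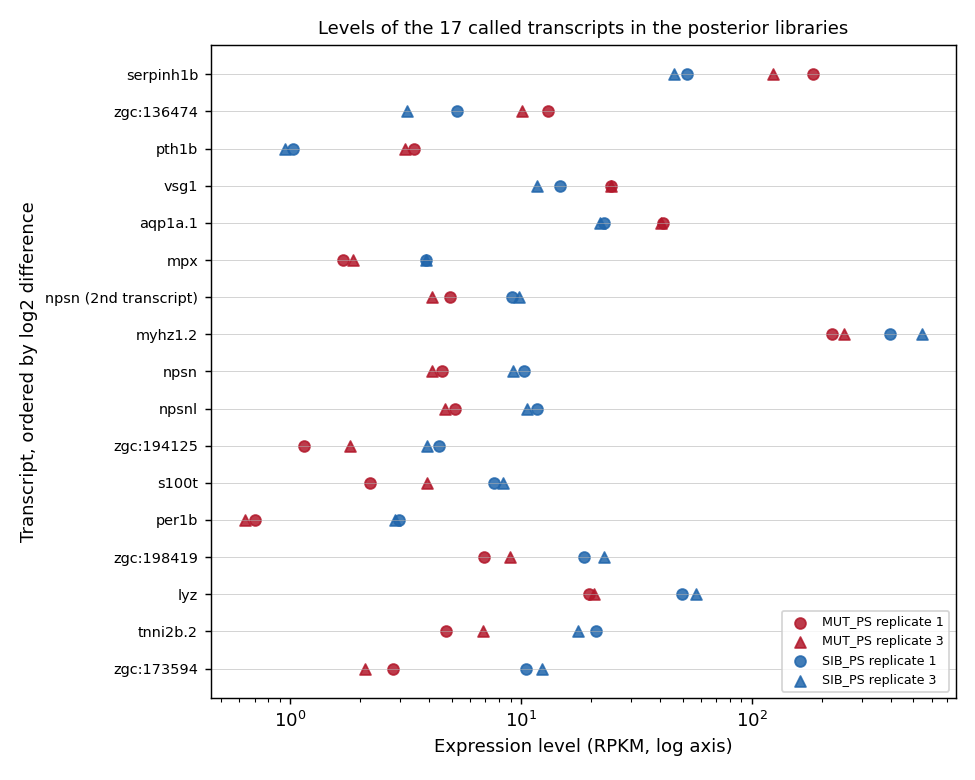
Level of each of the 17 called transcripts in RPKM (log axis) in the 2 MUT_PS libraries (red) and the 2 SIB_PS libraries (blue), with circles for replicate 1 and triangles for replicate 3. The red and blue points do not overlap in any of the 17 transcripts, with 5 transcripts higher and 12 lower in MUT_PS.

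Neutrophil products formed the largest set of called transcripts, although with npsnl taken as npsn the genes are only lyz, npsn and mpx. lyz, the lysozyme of neutrophils and macrophages, stood at 19.6 and 20.7 RPKM in MUT_PS and at 49.5 and 57.3 in SIB_PS. Both mutant libraries lay far below both sibling libraries, and the mean RPKM of the siblings was 2.65 times that of the mutants. The log2 difference of lyz was -1.36 (SE 0.18, limma adjusted p = 0.00134 with 1 variance per group and 0.0937 with a shared one). npsn encodes nephrosin, an astacin-type metalloprotease of neutrophils. One npsn transcript stood at 4.52 and 4.11 RPKM in MUT_PS and at 10.3 and 9.26 in SIB_PS, a difference of -1.02 (limma adjusted p = 0.0145). A second transcript of npsn differed by -0.92 (limma adjusted p = 0.0439) and npsnl by -1.03 (limma adjusted p = 0.0145). The annotation used for names lists npsnl as a synonym of npsn. npsnl stood at 5.16 and 4.69 RPKM in MUT_PS and at 11.7 and 10.5 in SIB_PS. In every library npsnl kept nearly the same ratio to the first npsn transcript, so they are not separate measurements. The second npsn transcript may share reads with them and is not independent either. mpx, the myeloid peroxidase gene, appears as 2 copies of the same transcript. One copy stood at 1.69 and 1.86 RPKM in MUT_PS and 3.87 and 3.88 in SIB_PS (difference -0.81, limma adjusted p = 0.0439). The other copy stood at 6.24 and 7.42 RPKM in MUT_PS and at 9.96 and 6.5 in SIB_PS, so that its groups overlapped, and it was not called (difference -0.22, limma adjusted p = 0.982).

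The neutrophil list as a whole spread to both sides. Of its 17 tested members, represented by 1 transcript per symbol, 8 had a higher and 9 a lower mean in MUT_PS, beside 63.8% of all transcripts with a higher mean. The median difference was -0.07 beside 0.06 over all tested transcripts. Its groups did not overlap in 7 members that were lower (41.2%) and 3 that were higher (17.6%), where over all transcripts 8.93% were lower and 23.8% higher without overlap. The synonyms npsn and npsnl are counted separately here, and both are among those 7, so that count is too high by gene. After median scaling 7 members were lower (41.2%) and 2 higher (11.8%) without overlap, beside 19.0% and 15.5% of all transcripts. srgn, which encodes the granule proteoglycan serglycin, was among the lower members, with 4.42 and 4.84 RPKM in MUT_PS and 6.27 and 5.82 in SIB_PS. The median of the list moved to 0.08 without SIB_PS replicate 1. Of the genes of macrophages and of leukocytes in general, 23 of 26 were higher in mean, with a median of 0.15 (0.04 without SIB_PS replicate 3) and 0 called. csf1ra, the receptor of macrophage colony-stimulating factor, stood at 2.25 and 2.68 RPKM in MUT_PS and at 1.94 and 1.78 in SIB_PS. In bulk tissue, fewer cells of a type and less RNA per cell cannot be told apart.

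Of the lower transcripts, 3 lie in 1 run of neighbouring genes that holds the ferritin heavy chain-like (fthl) family. Ferritin is the protein shell in which cells store iron. zgc:198419, now named fthl28, stood at 6.91 and 8.93 RPKM in MUT_PS and at 18.8 and 22.7 in SIB_PS (log2 difference -1.29, SE 0.32, limma adjusted p = 0.0235). zgc:194125, now fthl29, stood at 1.14 and 1.81 RPKM in MUT_PS and at 4.41 and 3.90 in SIB_PS (difference -1.07, SE 0.22, limma adjusted p = 0.0439). Both genes lay below the sibling range in both mutant libraries. zgc:173594, to which the annotation gives no product name, had the largest difference of the 17. It stood at 2.80 and 2.11 RPKM in MUT_PS and at 10.5 and 12.2 in SIB_PS, a difference of -1.84 (SE 0.28, limma adjusted p = 0.00134). The mean RPKM of its siblings was 4.63 times that of the mutants. In the order of the reference annotation (assembly GRCz12tu, another build than the Zv9 of the authors, so that no coordinates are given), the run from fthl27 to zgc:173594 holds 7 genes, of which 5 were tested here. The other two tested members lay closer to 0. fthl27 stood at 126 and 118 RPKM in MUT_PS and at 115 and 91.5 in SIB_PS, a difference of 0.25, and fthl31 at 12.0 and 16.2 against 16.4 and 15.09, a difference of -0.17. Reads of paralogs in such a run could have been divided among them by the aligner, so their separate levels are uncertain. fthl30 and LOC558816 were not analysed here.

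**Figure D2:**
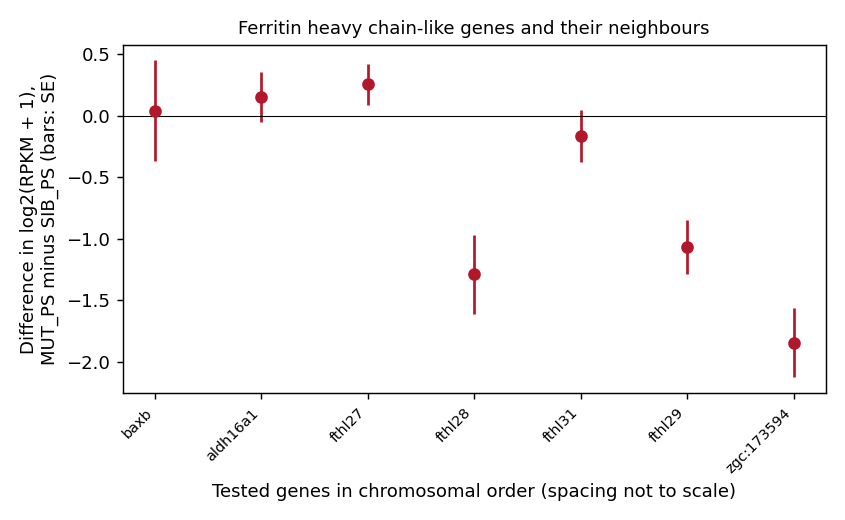
Log2 difference between MUT_PS and SIB_PS (points, bars are the standard error) for the tested genes from baxb to zgc:173594, in chromosomal order with spacing not to scale. fthl28, fthl29 and zgc:173594 lie between -1.07 and -1.84, while fthl27 and fthl31 of the same run lie at 0.25 and -0.17.

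Red cell genes were higher in both mutant libraries, and far more so in replicate 1. hbae3, an embryonic alpha globin, stood at 2943 and 895 RPKM in MUT_PS and at 521 and 431 in SIB_PS. The beta globin hbbe1.1 stood at 2389 and 759 RPKM in MUT_PS and at 409 and 339 in SIB_PS. For each of them MUT_PS replicate 1 was the highest library, and replicate 3 lay above both siblings. Differences were 1.77 for hbae3, 1.85 for hbbe1.1, 1.93 for hbbe3 and 1.89 for hbbe2, and none was called (limma adjusted p = 0.940, 0.940, 0.940 and 0.802). The red cell carbonic anhydrase gene cahz stood at 61.6 and 23.8 RPKM in MUT_PS and at 10.4 and 8.36 in SIB_PS (difference 1.93). The heme pathway genes followed the same order of libraries. alas2, whose enzyme sets the rate of heme synthesis in red cells, stood at 47.3 and 13.8 RPKM in MUT_PS and at 8.78 and 6.37 in SIB_PS. hmbsb, the hydroxymethylbilane synthase gene, differed by 1.24, and cpox, the coproporphyrinogen oxidase gene, by 0.85, without overlap in either. gata1a, the transcription factor of the red cell lineage, stood at 6.18 and 1.42 RPKM in MUT_PS and at 0.603 and 0.686 in SIB_PS. hdr, a death receptor of blood cells, stood at 11.5 and 6.71 RPKM in MUT_PS and at 4.92 and 2.55 in SIB_PS.

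All 30 tested members of the erythroid list had a higher mean in MUT_PS, and in 24 (80.0%) the groups did not overlap, beside 23.8% of all transcripts. The median difference was 0.95, and it was 0.56 without MUT_PS replicate 1 and 1.48 without MUT_PS replicate 3. The list held 1.63% and 0.609% of all RPKM in the MUT_PS libraries and 0.380% and 0.325% in the SIB_PS libraries. In the anterior segments it held 1.04% and 0.449% in MUT_AS and 0.467% and 0.230% in SIB_AS, with a median difference of 0.72. Its share was larger in replicate 1 than in replicate 3 in every group. A single member was called, the water channel gene aqp1a.1, and it did not follow the globins. aqp1a.1 stood at 41.1 and 40.3 RPKM in MUT_PS and at 22.9 and 22.02 in SIB_PS, so that the replicates were close in both groups (difference 0.83, SE 0.15, limma adjusted p = 0.0320). tspo, a protein of the outer mitochondrial membrane, likewise had close replicates, with 59.6 and 52.6 RPKM in MUT_PS and 31.2 and 37.2 in SIB_PS, and was not called (difference 0.70, limma adjusted p = 0.175).

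Among the posterior libraries, some heart muscle genes set MUT_PS replicate 1 apart as well. The heart myosin light chain gene myl7 stood at 9.59 RPKM in that library, at 0.0510 in MUT_PS replicate 3 and at 0.122 and 0.533 in SIB_PS. cmlc1, another heart myosin light chain gene, stood at 9.40 RPKM in MUT_PS replicate 1, was listed at 0 in replicate 3 and stood at 0.314 and 0.222 in SIB_PS. tnnt2a, the heart troponin T gene, stood at 5.33 RPKM against 0.302 in the other mutant library and 0.180 and 0.187 in SIB_PS. These markers were thus near 0 in 3 of the 4 posterior libraries and present in the one with the highest globins. In the anterior segments all 3 were higher in replicate 1 than in replicate 3 in both genotypes. There cmlc1 stood at 16.6 RPKM in MUT_AS replicate 1 and 9.86 in SIB_AS replicate 1, and was listed at 0 in both replicates 3. tnnt2a stood at 10.9 and 0 RPKM in MUT_AS and at 5.94 and 0.0848 in SIB_AS. The heart signal was therefore present in anterior siblings too. Of the 19 tested members of the heart list, 15 had a higher and 4 a lower mean in MUT_PS. Without overlap, 3 were higher (15.8%) and 2 lower (10.5%), beside 23.8% and 8.93% of all transcripts. The mean log2 level of the list was 2.708 and 1.985 in MUT_PS and 2.02 and 1.962 in SIB_PS. zgc:114164, now named myl4, was lower in MUT_PS without overlap (difference -0.56). The part of the heart tissue in the red cell difference was not tested.

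**Figure D3:**
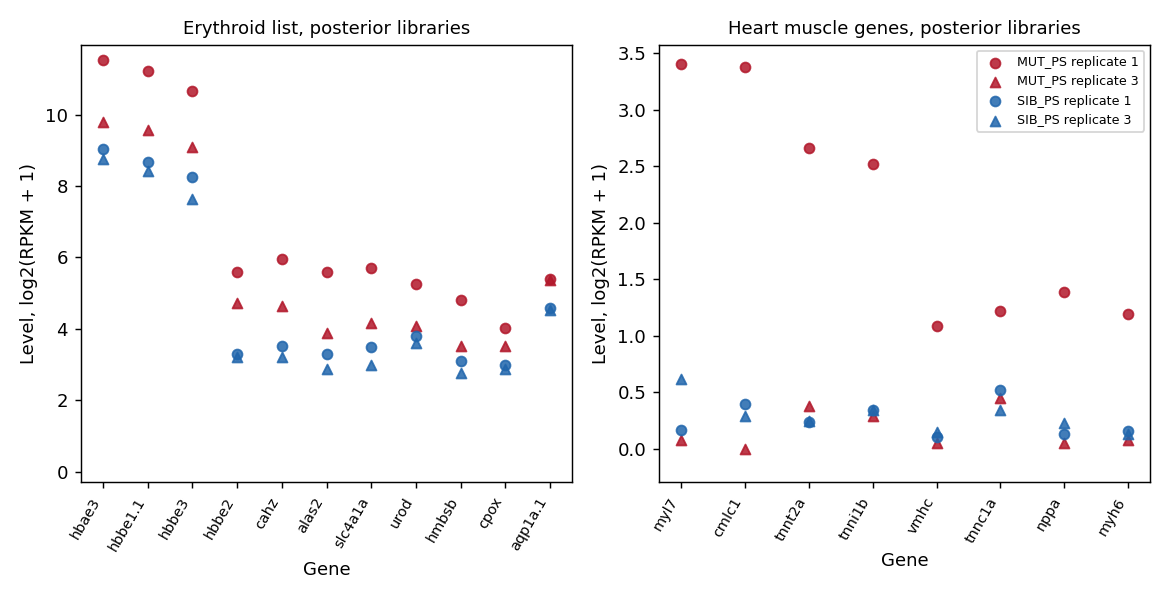
Level in log2(RPKM + 1) of red cell genes (left panel) and heart muscle genes (right panel) in the 4 posterior libraries, with red for MUT_PS, blue for SIB_PS, circles for replicate 1 and triangles for replicate 3. MUT_PS replicate 1 is the highest library for every gene of both panels, and the other 3 libraries lie close to 0 for myl7, cmlc1 and tnnt2a, while aqp1a.1 has both MUT_PS points together above both SIB_PS points.

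Vessel genes were led by vsg1. vsg1, now named plvapb, encodes a protein of the diaphragms that span openings in capillary endothelium. It stood at 24.4 and 24.6 RPKM in MUT_PS and at 14.8 and 11.7 in SIB_PS, a log2 difference of 0.85 (SE 0.16, limma adjusted p = 0.0399). klf2b, a flow-responsive transcription factor gene of endothelium, stood at 9.47 and 11.6 RPKM in MUT_PS and at 5.74 and 5.79 in SIB_PS and was not called (difference 0.77, limma adjusted p = 0.281). The endothelial list, both genes included, had 23 of 34 higher in mean and a median of 0.09, which was 0.02 without SIB_PS replicate 3. Without overlap, 9 were higher (26.5%, close to the 23.8% of all transcripts) and 6 lower (17.6%, beside 8.93%). After median scaling 5 were higher (14.7%) and 7 lower (20.6%), close to the 15.5% and 19.0% of all transcripts.

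Among muscle genes the called transcripts were both fast. tnni2b.2, a troponin I of fast muscle, stood at 4.71 and 6.85 RPKM in MUT_PS and at 21.1 and 17.6 in SIB_PS. The groups were well apart, with a log2 difference of -1.60 (SE 0.25, limma adjusted p = 0.0105). myhz1.2, a fast myosin heavy chain gene, stood at 223 and 249.7 RPKM in MUT_PS and at 396 and 543 in SIB_PS (difference -0.97, SE 0.20, limma adjusted p = 0.0439). Its neighbour in name, myhz1.1, stood at 1349.7 and 1302 RPKM in MUT_PS and at 1666 and 2345 in SIB_PS. It was not called (difference -0.58, limma adjusted p = 0.504), and fast myosin genes are alike enough that reads may be divided among them. A further fast myosin, myhz2, went the other way, with 476 and 336 RPKM in MUT_PS and 359 and 289 in SIB_PS. Of 55 fast muscle genes, 44 were lower in mean in MUT_PS, 18 (32.7%) lower and 2 (3.64%) higher without overlap, beside 8.93% and 23.8% of all transcripts. The median difference was only -0.15 and ranged from -0.26 to -0.06 with each posterior library left out in turn. After median scaling 21 fast muscle genes (38.2%) were lower and 1 (1.82%) higher without overlap, beside 19.0% and 15.5% of all transcripts. acta1b, a skeletal actin gene, differed by -0.43. The list made up 21.1% and 21.3% of all RPKM in MUT_PS and 22.8% and 27.4% in SIB_PS, so SIB_PS replicate 3 held the largest share. Of 20 slow muscle genes, 14 were higher in mean, near the 63.8% of all transcripts, and 8 (40.0%) were higher without overlap. Their median was 0.17, and 0.05 without SIB_PS replicate 3. tnnc1b, a troponin C of slow muscle, stood at 546 and 468 RPKM in MUT_PS and at 426 and 382 in SIB_PS and was not called (difference 0.33, limma adjusted p = 0.856). gyg1b, a glycogenin that primes glycogen synthesis, was lower without a call, with 10.199 and 10.5 RPKM in MUT_PS and 14.9 and 19.3 in SIB_PS.

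serpinh1b had the largest difference among the 5 higher transcripts. It encodes Hsp47, the chaperone that binds procollagen in the endoplasmic reticulum. Its level was 184 and 123 RPKM in MUT_PS and 52.3 and 46.0 in SIB_PS, a log2 difference of 1.60 (SE 0.21, limma adjusted p = 0.00243). The list of collagen chaperone and modifying enzyme genes, which includes serpinh1b, had a far smaller median difference of 0.15. Of its 25 tested members, 22 were higher in mean. Without overlap, 12 (48.0%, beside 23.8% of all transcripts) were higher and 0 lower. p4ha2, a collagen prolyl hydroxylase subunit gene, stood at 14.7 and 18.2 RPKM in MUT_PS and at 10.95 and 12.1 in SIB_PS (difference 0.47, not called). When each library was scaled to the median of all tested transcripts, 7 of the 25 (28.0%, beside 15.5% of all) lay above SIB_PS and 2 (8.0%, beside 19.0%) below it without overlap.

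Chaperones of the cytosol and genes of the unfolded protein response lay on both sides of 0. dnajb1b and dnaja1l encode Hsp40 co-chaperones. dnajb1b stood at 15.09 and 11.05 RPKM in MUT_PS and at 7.90 and 6.48 in SIB_PS (difference 0.77, limma adjusted p = 0.182). dnaja1l stood at 10.5 and 6.46 RPKM in MUT_PS and at 5.04 and 4.81 in SIB_PS (difference 0.64, limma adjusted p = 0.488). The heat shock list had 22 members higher and 26 lower in mean, with a median of -0.06. For the unfolded protein response list 32 of 43 were higher in mean, the median was 0.05 and 0 were called.

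The other called transcripts belong to no common group. per1b, a period gene of the circadian repressor complex, stood at 0.706 and 0.634 RPKM in MUT_PS and at 2.95 and 2.84 in SIB_PS (difference -1.22, SE 0.31, limma adjusted p = 0.0235). Its level in siblings was 4.32 times that in mutants, with close replicates in both groups. cry1a, a cryptochrome gene of the same complex, stood at 2.38 and 3.74 RPKM in MUT_PS and at 5.32 and 6.41 in SIB_PS and was not called (difference -0.77, limma adjusted p = 0.561). cry2a, now named cry3a and also of the clock list, went the other way without overlap. It stood at 17.4 and 21.6 RPKM in MUT_PS and at 14.3 and 16.7 in SIB_PS (difference 0.31, limma adjusted p = 0.940). The 30 clock genes had a median of -0.07, with 9 (30%) lower and 3 (10%) higher without overlap, beside 8.93% and 23.8% of all transcripts. That median was 0.01 without MUT_PS replicate 1. After median scaling 11 clock genes (36.7%) were lower and 1 (3.33%) higher without overlap, beside 19.0% and 15.5% of all transcripts. The time of day of the dissections is not given in the labels. s100t, a member of the S100 family of calcium-binding proteins, stood at 2.21 and 3.93 RPKM in MUT_PS and at 7.59 and 8.35 in SIB_PS (difference -1.17, limma adjusted p = 0.0242). pth1b, a parathyroid hormone gene, stood at 3.42 and 3.13 RPKM in MUT_PS and at 1.03 and 0.944 in SIB_PS (difference 1.105, limma adjusted p = 0.0186). zgc:136474, now named rsrp1 and coding for an arginine and serine rich protein, stood at 13.1 and 10.045 RPKM in MUT_PS and at 5.26 and 3.2 in SIB_PS (difference 1.28, limma adjusted p = 0.0263). srsf5a, a splicing factor gene of the SR type, stood at 94.9 and 107 RPKM in MUT_PS and at 152 and 139.7 in SIB_PS, and was not called (difference -0.53, limma adjusted p = 0.396). The list of 85 splicing factor genes had 36 higher and 49 lower in mean, 5 higher and 5 lower without overlap (5.88% each, beside 23.8% and 8.93% of all transcripts), a median of -0.02 and 0 called. After median scaling 2 of them (2.35%) were higher and 28 (32.9%) lower without overlap, beside 15.5% and 19.0% of all transcripts.

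The medians of the hox lists lay on both sides of 0 in the posterior segments, with 0 called. All 13 tested genes of paralog groups 9 to 13, which are expressed toward the tail, had a higher mean in MUT_PS, and in 9 (69.2%) the groups did not overlap, beside 63.8% and 23.8% of all transcripts. After median scaling the count was also 9 (69.2%), beside 15.5% of all. hoxa11b stood at 16.6 and 9.84 RPKM in MUT_PS and at 8.52 and 8.63 in SIB_PS (difference 0.53). hoxb10a stood at 28.7 and 25.03 RPKM in MUT_PS and at 22.4 and 17.9 in SIB_PS (difference 0.40). Neither was called (limma adjusted p = 0.874 and 0.770), and replicate 1 was the higher mutant library in both. The median of this list was 0.32 and ranged from 0.15 without MUT_PS replicate 1 to 0.51 without MUT_PS replicate 3. Between MUT_AS and SIB_AS the same list had a median difference of 0.45. Of 18 genes of groups 1 to 5, whose expression begins farther forward, 7 were higher and 11 lower in mean, with 5 (27.8%) lower and 0 higher without overlap, beside 8.93% and 23.8% of all. After median scaling 5 (27.8%) were again lower and 0 higher, beside 19.0% and 15.5% of all. hoxb4a stood at 4.02 and 5.02 RPKM in MUT_PS and at 6.92 and 5.47 in SIB_PS (difference -0.38). hoxc5a stood at 3.55 and 4.11 RPKM in MUT_PS and at 4.95 and 4.84 in SIB_PS (difference -0.29). The median of groups 1 to 5 was -0.08, and it was 0.10 without SIB_PS replicate 1. Between MUT_AS and SIB_AS it was 0.325. The exact segment at which each piece ended is not given in the labels, and its part in these differences was not tested.

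Genes of the ribosome and of the proteasome differed by little but in step. Of 86 cytosolic ribosomal protein genes, 84 had a higher mean in MUT_PS and 56 (65.1%) were higher without overlap, with a median of 0.18 that was 0.12 without SIB_PS replicate 3. Of 49 proteasome genes, 40 had a lower mean and 21 (42.9%) were lower without overlap, with a median of -0.12 that was -0.05 without SIB_PS replicate 1. psmd11b, a subunit of the regulatory particle, stood at 23.4 and 22.2 RPKM in MUT_PS and at 29.3 and 25.9 in SIB_PS (difference -0.26). psmg2, the 1 member of the proteasome list that was higher without overlap, had the smallest p of that list. It stood at 11.2 and 12.0 RPKM in MUT_PS and at 10.3 and 8.19 in SIB_PS (difference 0.31). After median scaling, which changed the share of all transcripts without overlap from 23.8% to 15.5% higher and from 8.93% to 19.0% lower, 38 ribosomal genes (44.2%) were higher and 33 proteasome genes (67.3%) lower. Subunits of one complex are expressed together, so they are not independent of one another, and no single member of either list was called.

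**Figure D4:**
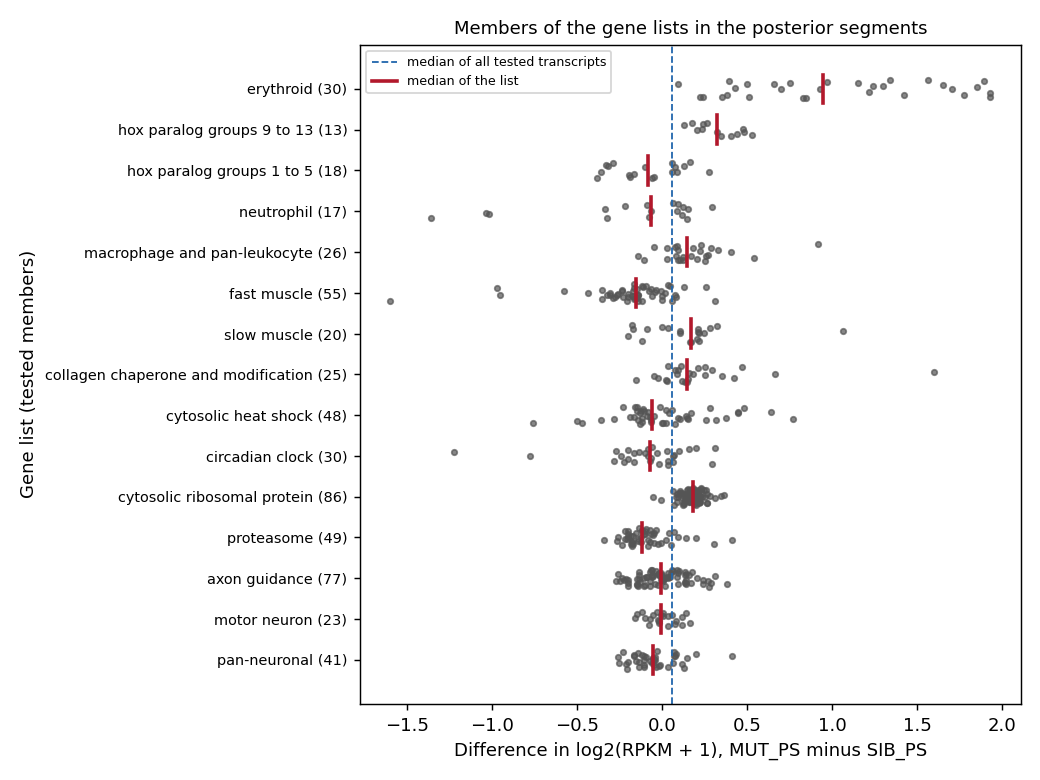
Log2 difference between MUT_PS and SIB_PS for each tested member (points) of 15 gene lists, with the list median in red and the median of all tested transcripts as a dashed line at 0.06. The erythroid list and hox paralog groups 9 to 13 lie to the right of 0, the proteasome and fast muscle medians lie to the left, and the axon guidance and motor neuron medians lie at 0.

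Axon guidance genes, which the study annotated in this table, had medians near 0 in the posterior segments. Of the 97 tested transcripts that carry the term in the authors' table, 53 were higher and 44 lower in mean, with a median of 0.01, and none was called or had an unadjusted p under 0.05 with a shared variance. Without overlap, 19 were higher (19.6%) and 11 lower (11.3%), close to the 23.8% and 8.93% of all transcripts. A separate list of 77 ligands, receptors and effectors of guidance had a median of 0.00, with 12 higher (15.6%) and 14 lower (18.2%) without overlap. After median scaling 5 were higher (6.49%) and 24 lower (31.2%), beside 15.5% and 19.0% of all transcripts. ephb4b, an Eph receptor gene, stood at 4.42 and 5.45 RPKM in MUT_PS and at 3.298 and 3.78 in SIB_PS (difference 0.38). kal1a, which encodes the secreted matrix protein anosmin, stood at 3.43 and 2.93 RPKM in MUT_PS and at 5.15 and 4.02 in SIB_PS (difference -0.41). Neither was called (limma adjusted p = 0.793 and 0.815). The 23 motor neuron genes had a median of 0.00, with 0 called. Without overlap 5 were higher (21.7%) and 2 lower (8.7%), and after median scaling 1 was higher (4.35%) and 7 lower (30.4%). olig2, the transcription factor of motor neuron progenitors, stood at 13.01 and 11.8 RPKM in MUT_PS and at 14.3 and 13.4 in SIB_PS (difference -0.15). Of 41 pan-neuronal genes, 30 had a lower mean in MUT_PS, where 63.8% of all transcripts had a higher one, and the median was -0.06 with 0 called. Without overlap 3 were lower (7.32%) and 2 higher (4.88%), and after median scaling 12 were lower (29.3%) and 1 higher (2.44%). That median was 0.03 without MUT_PS replicate 3. atp1a3a, a sodium pump subunit gene of neurons, stood at 5.36 and 4.43 RPKM in MUT_PS and at 6.56 and 5.55 in SIB_PS (difference -0.26). stmn4, a stathmin gene of neurons, stood at 5.82 and 4.40 RPKM in MUT_PS and at 3.46 and 3.66 in SIB_PS (difference 0.41).

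Skin, fin fold, pigment and notochord lists had medians above that of all transcripts (0.06), with 0 called. In the epidermis list 46 of 53 were higher in mean, with a median of 0.17, though the median was -0.04 without MUT_PS replicate 3. Without overlap, 12 (22.6%) were higher, near the 23.8% of all transcripts. krt18, a keratin gene of simple epithelia, stood at 229 and 272 RPKM in MUT_PS and at 172 and 181 in SIB_PS (difference 0.50). krt15 went the other way, with 3.34 and 10.1 RPKM in MUT_PS and 14.4 and 13.9 in SIB_PS (difference -1.13, limma adjusted p = 0.856), and its mutant replicates were far apart. In the fin fold list 11 of 25 (44.0%) were higher without overlap, and and1, an actinodin gene of fin fold fibrils, stood at 30.4 and 34.3 RPKM in MUT_PS and at 21.8 and 28.1 in SIB_PS. Of 34 pigment cell genes, 30 were higher in mean and 13 (38.2%) did not overlap. pts, an enzyme gene of pteridine synthesis, stood at 140.4 and 123 RPKM in MUT_PS and at 84.8 and 102.6 in SIB_PS. The notochord list had a median of 0.19, which was 0.06 without MUT_PS replicate 3. ctgfa, a connective tissue growth factor gene, stood at 35.99 and 43.2 RPKM in MUT_PS and at 26.4 and 19.8 in SIB_PS (difference 0.76, limma adjusted p = 0.176). Among 42 immediate early genes, which respond within minutes to many stimuli, 17 (40.5%) were higher and 5 (11.9%) lower without overlap. jun, a transcription factor gene of that list, stood at 29.0 and 27.4 RPKM in MUT_PS and at 22.7 and 19.5 in SIB_PS. After median scaling the higher members without overlap were 7 in the epidermis list (13.2%), 7 in the fin fold list (28.0%), 6 in the pigment list (17.6%) and 12 in the immediate early list (28.6%), beside 15.5% of all transcripts.

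Further genes of at least 5 RPKM that the naming rule chose were apart between the groups and not called, and others outside that rule had smaller p values than some of them. krt1-c5, a keratin gene of lower level, stood at 0.787 and 1.26 RPKM in MUT_PS and at 2.15 and 3.11 in SIB_PS (difference -0.84, limma adjusted p = 0.195). si:ch211-122l24.4, from the leukocyte list, differed by 0.92 (limma adjusted p = 0.182) and zgc:112992, from the liver and gut list, by 1.201 (limma adjusted p = 0.418). Higher in mean were smtnl1, a smoothelin-like muscle gene, at 19.4 and 19.6 RPKM in MUT_PS and 11.8 and 12.4 in SIB_PS (difference 0.65), and arrdc3b, an arrestin domain gene, at 19.6 and 20.5 against 13.3 and 13.2 (difference 0.56). arrdc2 of the same family differed by 0.62 and ccdc3 by 0.64. dao.1, a D-amino acid oxidase gene, stood at 6.32 and 12.9 RPKM in MUT_PS and at 3.69 and 4.28 in SIB_PS, with its mutant replicates far apart. twist2, a transcription factor gene of mesenchyme, stood at 9.36 and 8.55 RPKM in MUT_PS and at 5.62 and 5.88 in SIB_PS (difference 0.56). Lower in mean were lgals2b, a galectin gene, at 4.77 and 5.36 RPKM in MUT_PS and 13.95 and 7.74 in SIB_PS (difference -0.92), and cthrc1a, which encodes a secreted protein of collagen-rich tissue, at 14.2 and 12.7 against 18.4 and 19.8 (difference -0.48). sgk2b, a kinase gene, differed by -0.63, the RNA helicase gene ddx3 by -0.47 and slc25a33, a mitochondrial nucleotide carrier gene, by -0.45. Both libraries of one genotype lay on the same side in each of these genes. The naming rule required that of all but krt1-c5, si:ch211-122l24.4, zgc:112992 and twist2, which came from the gene lists. The limma adjusted p of these genes ranged from 0.175 for smtnl1 to 0.630 for sgk2b.

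The same genotypes were then placed side by side in the anterior segments, which are other libraries. All 5 transcripts called higher in MUT_PS were also higher in MUT_AS than in SIB_AS, without overlap, as were 27.0% of all tested transcripts, while 11.7% were lower without overlap. serpinh1b differed by 1.29 there, pth1b by 1.42, zgc:136474 by 0.93, aqp1a.1 by 0.74 and vsg1 by 0.62. Of the 12 called lower in MUT_PS, 6 had a lower mean in MUT_AS, of which 4 did not overlap, and 6 had a higher mean. The 4 were tnni2b.2 (-2.78), myhz1.2 (-1.30), per1b (-0.85) and zgc:173594 (-0.76). The called neutrophil transcripts had a higher mean in MUT_AS than in SIB_AS. lyz stood at 138 and 103 RPKM in MUT_AS and at 85.2 and 90.3 in SIB_AS, so that it was higher in anterior mutants without overlap while it was lower in posterior ones. The copy of mpx that was called stood at 7.55 and 8.48 RPKM in MUT_AS and at 5.93 and 6.51 in SIB_AS, also without overlap. The other copy of mpx went the opposite way, with 2.02 and 3.97 RPKM in MUT_AS and 5.06 and 9.52 in SIB_AS, lower without overlap. The anterior difference was 0.03 for npsnl and for 1 npsn transcript and 0.12 for the other.

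Whether the posterior difference departs from the anterior one was tested as the interaction of genotype and region. limma called 0 of 10889 transcripts in it (0.0%), with 298 (2.74%) at an unadjusted p under 0.05 and a smallest adjusted p of 0.119. For lyz the posterior minus the anterior difference was -1.80 (SE 0.25, unadjusted p = 3.07e-05, limma adjusted p = 0.119, and 0.0649 with 1 variance per group). For the called copy of mpx it was -1.13 (SE 0.23, limma adjusted p = 0.857) and for the other copy 0.83 (limma adjusted p = 0.999). For s100t it was -1.37 (SE 0.31, limma adjusted p = 0.857) and for tnni2b.2 1.18 (SE 0.35, limma adjusted p = 0.999). A difference between the regions is therefore not shown for any of these genes.

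**Figure D5:**
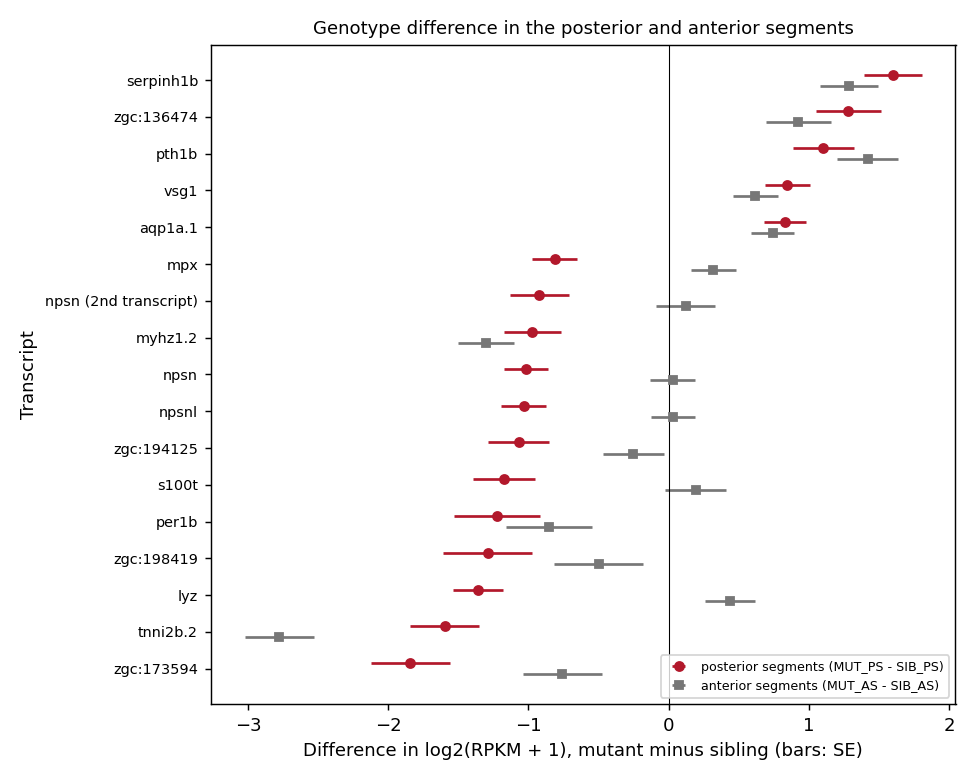
Log2 difference between mutants and siblings for the 17 called transcripts in the posterior segments (red circles) and in the anterior segments (grey squares), with bars for the standard error. The 5 transcripts higher in MUT_PS are higher in both regions, while lyz and the called copy of mpx lie on opposite sides of 0 and the npsn and npsnl transcripts lie near 0 in the anterior segments.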

How the data were processed

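Per the design text, reads of 8 trunk libraries were aligned by the authors with RUM to the Zv9 (danRer7) genome and each read was assigned to 1 transcript. For RUM the version was not given in the sources used here. Expression was deposited by the authors as log2(RPKM + 1), per the file headers, and RPKM was recovered from it. The authors also deposited ratio columns, called fold change, which were not used. Of 14809 rows, 228 fill rows without ratios were left out, and current symbols were found by accession for 94.0% of the 14581 kept. The design allowed for counts. None were in the table, so depth and counting error are unknown.

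The 10889 transcripts whose mean over all 8 libraries reached 1 RPKM entered limma 3.58.1 (R 4.3.3, statmod 1.5.0), 1 mean per group, trend and robust moderation, and Benjamini-Hochberg adjustment over all transcripts. Group variances were either shared or estimated per group (arrayWeights). The procedure was tested on simulated data. Samples were grouped by title. Same-numbered libraries deviated together in some pairs of groups but not in all.

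Named genes were the 15 with the smallest p per direction among those with a mean of at least 5 RPKM in the posterior libraries, groups apart and no clone name as symbol, the 5 per direction with the largest difference, the 3 with the smallest p in each of 41 gene lists, the called transcripts, foxc1a and foxc1b. Other genes named with values (tbx5a, myhz2, acta1b, srgn, gata1a, alas2, heart genes and ferritin neighbours) are list members or neighbours chosen after their values were seen. The comparison and the gene lists were chosen with earlier results of these data known. Alternatives covered the pseudocount, the filter, the moderation, the variance model, median scaling, a replicate block and each library left out.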

Additional observations from a re-analysis of the deposited data

How the results depend on the processing

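The count of transcripts called between MUT_PS and SIB_PS was 0 with a shared variance and moved with the estimate of spread. It was 17 with 1 variance per group, 99 with the posterior libraries alone, 14 without the MUT_AS libraries and 2 with a filter at a mean of 5 RPKM. With each library left out in turn it ranged from 0 to 15, and it was above 0 only without MUT_AS replicate 1 (15) or without MUT_AS replicate 3 (12). The pseudocount of 0.1, no filter, no trend and median scaling left it at 0. Among the alternatives chosen after seeing the data, median scaling with 1 variance per group gave 14, all among the 17. Leaving out the MUT_AS libraries and 1 posterior library gave 7 without MUT_PS replicate 1, 34 without MUT_PS replicate 3, 2 without SIB_PS replicate 1 and 11 without SIB_PS replicate 3, of which 4, 10, 2 and 2 were among the 17. In those 4 fits lyz and zgc:173594 were called each time, serpinh1b and per1b without either MUT_PS library, and npsn, npsnl, aqp1a.1, vsg1, mpx and myhz1.2 in none. All 17 kept their sign in every fit in which they were tested, but this was largely fixed in advance. Their posterior groups did not overlap, so leaving out 1 posterior library could not turn a sign. Changing only the variance model, the moderation, the replicate block or the anterior libraries left the posterior difference as it was.

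By the check used, same-numbered libraries deviated together in some pairs of groups and not in others. The correlation of replicate deviations ranged from -0.09 between MUT_AS and SIB_PS to 0.52 between SIB_AS and SIB_PS. It was 0.16 between MUT_PS and SIB_PS. A replicate block changed the SE of the posterior difference from 0.87 to 0.25 for hbbe3 and from 0.32 to 0.34 for zgc:198419, so it fell for some transcripts and rose for others. With the replicate block the count was 0, and with the block and 1 variance per group it was 46, which included all 17. The block with 1 variance per group called 1 transcript in the interaction of genotype and region.

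The interaction count was 0 in the reported fit and ranged from 0 to 199 with each library left out, with 199 without MUT_AS replicate 1 and 11 without MUT_AS replicate 3. The cause was not tested. hoxc6b, at -0.12 in the reported fit, ranged from -0.298 to 0.0657 with each library left out and was 0.0657 without SIB_PS replicate 1, with and without the MUT_AS libraries. Of the values for named genes, 3070 kept direction and side of the threshold, 162 passed it and 2 turned. Of the list medians, 864 moved by less than the replicate spread and 79 by more. These counts include many outcomes that could not differ. Fits that changed only the variance model, the moderation, the replicate block or the anterior libraries left every posterior difference and list median as it was. Where the posterior groups did not overlap, leaving out 1 library could not turn the direction either. Without counts, differences in transcripts near 1 RPKM cannot be given a counting error.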
